A study of Mus musculus with 4 samples.

Results

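The proteasome genes were followed through thymocyte development in 2 single-cell RNA libraries of mouse thymus, with the immune and thymic subunits set apart from the constitutive ones. All symbols of the form Psma, Psmb, Psmc, Psmd, Psme, Psmf or Psmg plus a number were taken, pseudogenes left out, which gave 50 of 21926 genes. Of these, 49 encode subunits, activators, an inhibitor or assembly chaperones of the proteasome. Psmc3ip, a DNA recombination factor named for its binding to Psmc3, matches the pattern but is no subunit and is given apart.

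The WT library came from the thymus of an Eif4g2 flox/flox mouse without Cre. The cKO library came from a CD4-Cre; Eif4g2 flox/flox mouse, in which the Cd4-driven Cre deletes floxed Eif4g2, a translation initiation factor, from the CD4+ CD8+ double-positive (DP) stage on. Both mice were labelled as female and 5 weeks old. Thymus cells were loaded unsorted, and the study's methods describe littermates on a C57BL/6 background. Each genotype is 1 library of 1 mouse, so no difference between them has a replicate check and no test was made. All intervals are 95% intervals for counting error only.

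The files held 6014 WT and 4335 cKO cells, of which 6012 and 4335 were kept, with 18355050 and 18056277 UMIs (unique molecular identifiers, 1 per captured RNA molecule) in all and medians of 1732.5 and 2140 UMIs per cell. The libraries stood apart in sex-linked RNA: 3 Y-linked genes had 2542 UMIs together in WT and 1 in cKO, which goes against the female label of the WT library. Eif4g2 itself stood at 223 CPM (summed UMIs scaled to 1000000) in WT and 274 CPM in cKO, but a count of tags from the end of a transcript does not check a deletion inside it. Hemoglobin and other erythroid genes summed to 203 CPM in WT and 13.7 CPM in cKO mature cells, and their part in the results below was not tested. Sex and genotype cannot be told apart in these libraries.

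The proteasome degrades ubiquitin-tagged proteins. Its 20S core is a barrel of alpha and beta rings whose beta1, beta2 and beta5 subunits cut peptide bonds, and its 19S caps recognise, unfold and thread the substrates. Cells exposed to interferon, and many lymphocytes without it, build immunoproteasomes in which Psmb9, Psmb10 and Psmb8 take the beta1, beta2 and beta5 positions of Psmb6, Psmb7 and Psmb5. Cortical thymic epithelial cells use Psmb11 at the beta5 position, and the peptides made there help to select CD8+ T cells.

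The genes compared most closely lie at these positions (GRCm38). Psmb9 spans chr17:34181987-34187764 on the minus strand and Psmb8 spans chr17:34197721-34201454 on the plus strand, on either side of the peptide transporter gene Tap1 at chr17:34187553-34197225, in the MHC region. The annotated 5′ ends of Psmb9 and Tap1 overlap on opposite strands, and whether the counting used strand was not given in the sources used here. Psmb10 lies at chr8:105935735-105938444 and its constitutive partner Psmb7 at chr2:38588036-38644087, both on the minus strand. Psmb6 lies at chr11:70525367-70527858. Chromosome 14 holds Psmb5 at chr14:54614119-54618022 and Psmb11 next to it at chr14:54621433-54629556, and also Psme1 at chr14:55578123-55581529 and Psme2 at chr14:55587441-55591113, which encode the alpha and beta chains of the PA28 activator.

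Promoter stretches around a motif match are shown for the catalytic pairs, for PA28 and for the 19S cap, because these groups behaved differently in the values that follow. The windows were read 5′ to 3′ on the gene's strand from RefSeq promoters (GRCm38.p6, 250 bases before to 50 after the start site), which matched 42 of the 50 genes, and motifs were searched on both strands. TGACNNNGC, a core of the antioxidant response element, is in capitals in Psmb5 and Psmb6.
Psmb5, chr14:54618023-54618052: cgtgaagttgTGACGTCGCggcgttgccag
Psmb6, chr11:70525338-70525367: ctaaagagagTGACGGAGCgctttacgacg
TTCNNNGAA, the gamma-activated sequence bound by interferon-activated STAT factors, is in capitals in Psmb8, GAAA, any 2 bases and GAAA again, an interferon-stimulated response core, in Psme1 (reverse strand), and CCAAT, the CCAAT box, in Psmb9 (reverse strand).
Psmb8, chr17:34198088-34198117: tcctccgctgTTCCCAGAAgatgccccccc
Psme1, chr14:55578493-55578522: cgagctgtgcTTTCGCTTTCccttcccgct
Psmb9, chr17:34187321-34187350: gcgcagccgctgATTGGaaagccgagcccc
CCGGAAG, a core bound by ETS factors, is in capitals in 3 genes of the 19S cap, in the reverse orientation in Psmc1 and Psmd12.
Psmc1, chr12:100110163-100110192: tggtggatgcaCTTCCGGcggtggcgattt
Psmc6, chr14:45329713-45329742: aggcgggccagCCGGAAGgggcggagccag
Psmd12, chr11:107479500-107479529: tgagcgggcgaCTTCCGGtgcgagtgacga
CCGGAAG was found in 15 of 42 promoters (35.7%), against 9.93% of all gene symbols with a promoter, and 9 of the 17 promoters of the 19S cap held it, against 1 of 7 in the alpha ring, 0 of 4 among constitutive beta subunits and 0 of 3 among immune subunits. CCAAT was in 35.7% of the members and 41.1% of all genes. TGACNNNGC was in 6 of 42 (14.0% of all genes), TTCNNNGAA in 3 (9.55%) and the interferon-stimulated response core in 5 (3.99%). The genes shown are examples, and these 3 motifs were also found in other groups. TGACNNNGC was also in Psmc6, Psmd9, Psmd12 and Psme4, and TTCNNNGAA also in Psmd2 and Psmg1. Besides Psme1, the interferon-stimulated response core was in Psmb3, Psmd4, Psmd9 and Psmg4, and in 0 of 3 immune subunits. A match is a description of the letters and not a binding site.

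Cells were grouped by clusters rebuilt without the proteasome genes and named from marker lists: immature CD4- CD8- (DN-like), cycling, DP-like, early post-selection-like, mature single-positive (SP-like), innate T-like and antigen-presenting-like cells. The 5 main classes held 102, 961, 3293, 599 and 899 WT cells and 134, 1294, 2098, 427 and 340 cKO cells in that order, without the innate T-like and antigen-presenting-like classes. DP-like cells came mostly from different clusters in the libraries, with 2403 WT and 140 cKO cells in cluster 0, 137 and 1526 in cluster 2, and 753 and 432 in cluster 1. Cycling cells split likewise, with 503 WT and 20 cKO cells in cluster 6, 128 and 800 in cluster 7, and 330 and 474 in cluster 4. Mature and early post-selection-like cells were 1 cluster each.

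Proteasome RNA took 0.707% to 0.966% of the UMIs in the 5 main classes. The 49 proteasome genes together took 7069 CPM in WT DP-like cells, the lowest value of the 5 classes, and 9662 CPM in cKO cycling cells, the highest. In WT the sum was 8179 CPM in DN-like, 9458 in cycling, 8351 in early post-selection-like and 7914 in mature cells, and in cKO it was 8686, 8056, 9505 and 7759 CPM in DN-like, DP-like, early and mature cells. Single genes varied more. Of 48 genes with 50 or more UMIs in WT, the median gene was 1.75-fold higher in its highest than in its lowest class, and in cKO, with 47 genes, 1.56-fold. Cycling cells were the highest class for 31 of 48 genes in WT and 27 of 47 in cKO.

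Psmb11, the thymic beta5 subunit, was almost absent from these suspensions. It had 7 UMIs in the whole WT library, 5 of them in DP-like and 2 in cycling cells, and 10 in cKO, 5 of them in cycling cells. Markers of thymic epithelium summed to at most 30.1 CPM over all cells of a library, and Foxn1, the epithelial master factor, was at 0 in both libraries. Psma8, the testis-type alpha subunit, had 3 and 11 UMIs. Psme2b had 51 and 27 UMIs, and since it is a near copy of Psme2 its counts are uncertain.

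Psmb9, the immune beta1 subunit, had its lowest level of the 5 main classes in DP-like cells and then differed between the libraries in mature cells. In WT it stood at 196 CPM (164 to 233) in DN-like, 152 (143 to 161) in cycling, 78.0 (70.6 to 85.9) in DP-like, 89.2 (73.0 to 108) in early post-selection-like and 224 (208 to 241) in mature cells. In cKO the values in the same order were 175 CPM (149 to 203), 146 (139 to 153), 73.8 (65.0 to 83.4), 84.0 (65.6 to 106) and 113 (95.9 to 132). The libraries' intervals overlapped in the first 4 classes and lay far apart in mature cells. Antigen-presenting-like cells had 383 CPM in WT and 303 CPM in cKO, and innate T-like cells 270 and 286 CPM.

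Psmb10, the immune beta2 subunit, had a like course with a smaller range. It stood at 247 CPM in DN-like, 136 in cycling, 109 (100 to 118) in DP-like, 156 (134 to 180) in early and 246 (229 to 263) in mature WT cells. In cKO it stood at 215, 123, 113 (102 to 124), 166 (139 to 196) and 182 CPM (161 to 206). As for Psmb9, only the mature class had WT clearly above cKO among the last 3 classes.

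Psmb8, the immune beta5 subunit, behaved otherwise: it was the most abundant of the 3 immune subunits in each of the 7 classes and had the smallest range across the 5 main ones. In WT it ranged from 444 CPM (426 to 462) in DP-like cells to 656 CPM in DN-like cells, with 569 (543 to 596) in mature cells. In cKO it ranged from 560 CPM (536 to 586) in DP-like to 769 (711 to 831) in early post-selection-like cells, with 571 (532 to 612) in mature cells. Mature cells of the libraries did not differ beyond counting error (log2 cKO over WT 0.00, −0.12 to 0.13), while DP-like and early cells had cKO above WT by 0.34 and 0.38 on the log2 scale.

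**Figure D1:**
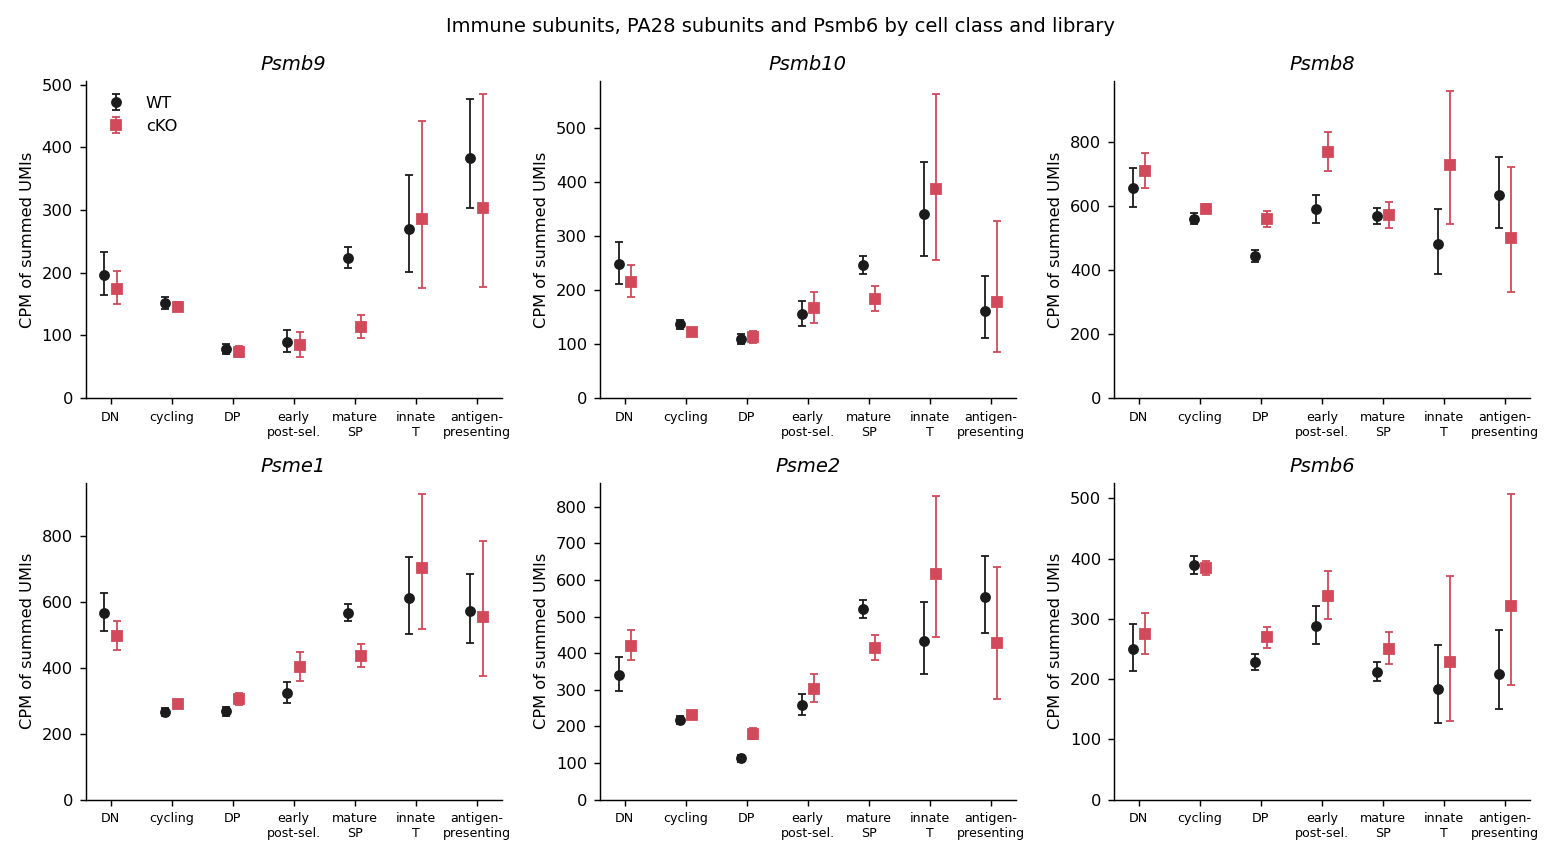
Level of Psmb9, Psmb10, Psmb8, Psme1, Psme2 and Psmb6 (CPM of the summed UMIs, vertical axes from 0) in 7 cell classes of the WT (black circles) and cKO (red squares) libraries, with 95% counting intervals as bars. Psmb9 stands at 224 CPM in WT and 113 CPM in cKO mature cells, while the libraries lie close together in cycling cells, where it stands at 152 and 146 CPM.

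The share of the immune form at each catalytic position sets an immune subunit against its constitutive partner in the same cells, and does not depend on the scaling between libraries. At the beta1 position, Psmb9 made up 25.5% (23.4 to 27.7) of the Psmb9 and Psmb6 UMIs in WT DP-like cells and 51.3% (48.6 to 53.9) in WT mature cells. In cKO the shares were 21.5% (19.2 to 24.0) and 31.1% (27.0 to 35.3). At the beta2 position, Psmb10 against Psmb7, the share went from 52.5% (49.5 to 55.6) in DP-like to 76.7% (74.0 to 79.2) in mature WT cells, and from 50.9% (47.3 to 54.5) to 65.8% (60.8 to 70.5) in cKO. At the beta5 position, Psmb8 against Psmb5, it was 64.5% (63.0 to 66.1) and 65.3% (63.5 to 67.1) in WT and 67.1% (65.4 to 68.8) and 64.8% (62.1 to 67.5) in cKO. Mature cells thus had a higher immune share than DP-like cells at 2 of the 3 positions, in WT and in cKO.

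Before the mature stage the beta1 shares of the libraries lay closer together. The beta1 share was 43.9% in WT and 38.9% in cKO DN-like cells, 28.0% and 27.5% in cycling cells, and 23.6% and 19.9% in early post-selection-like cells, so early cells sat with DP-like and not with mature cells. For beta2 the shares were 72.2% and 64.3% in DN-like cells and 49.8% (47.6 to 52.0) and 42.5% (40.8 to 44.2) in cycling cells, and the early shares were 56.8% (51.2 to 62.3) and 56.0% (49.6 to 62.2). Cycling cells had the lowest beta5 share of the 5 classes in both libraries, 54.4% (53.2 to 55.5) in WT and 58.2% (57.3 to 59.1) in cKO. Innate T-like cells had beta1 shares of 59.5% (48.3 to 70.1) and 55.6% (38.1 to 72.1), from 51 and 14 cells, and antigen-presenting-like cells 64.8% and 48.6%, from 64 and 24 cells.

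**Figure D2:**
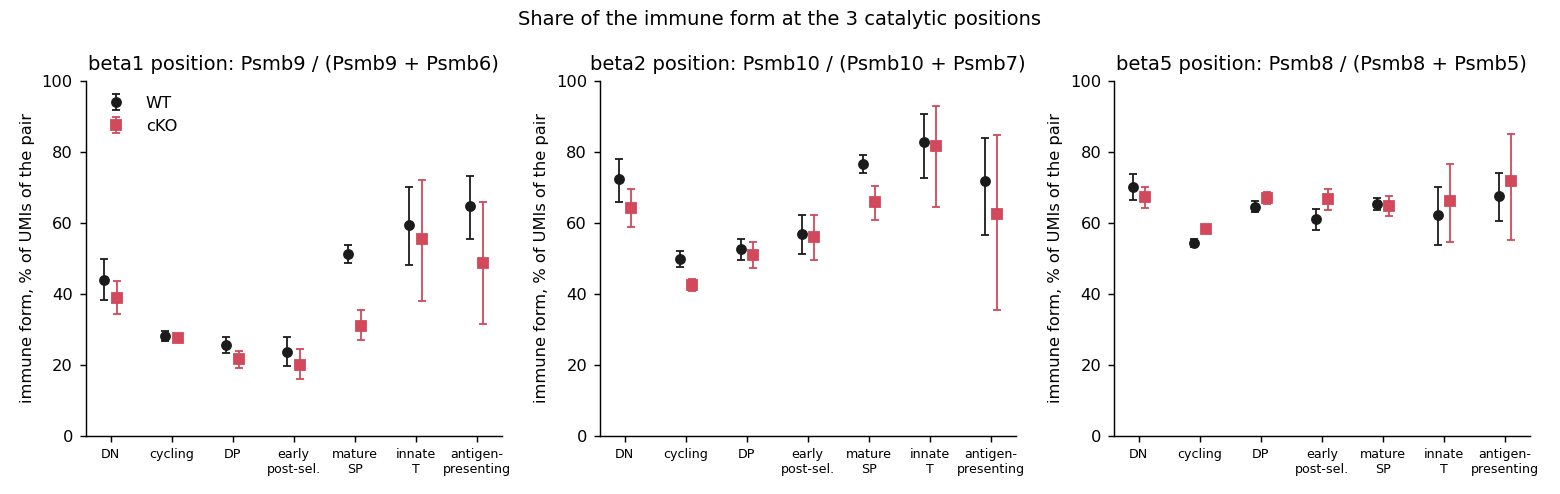
Share of the immune form (% of the UMIs of an immune and constitutive pair, 0 to 100%) at the beta1, beta2 and beta5 positions in 7 cell classes of the WT (black circles) and cKO (red squares) libraries, with exact binomial 95% intervals as bars. The beta1 share of mature cells is 51.3% in WT and 31.1% in cKO, and the beta5 shares of mature cells are 65.3% and 64.8%.

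Mature cells were split by marker UMIs, a split chosen after seeing the data. Cells with a UMI of Klf2 or S1pr1, which mark thymocytes ready to leave the thymus, were 42.4% of WT and 32.4% of cKO mature cells. With such a UMI the beta1 share was 59.0% (55.5 to 62.4) in WT and 38.1% (30.9 to 45.7) in cKO, and without one 41.3% (37.3 to 45.3) and 27.3% (22.5 to 32.5). Cells with Cd4 UMIs only had 52.3% and 32.4%, and cells with Cd8 UMIs only 54.7% and 33.1%. The Cd4 and Cd8 fractions held 182 and 316 WT cells (20.2% and 35.2% of the class) and 61 and 96 cKO cells (17.9% and 28.2%). They leave out mature cells with UMIs of both genes or of neither, and overlap the fractions of the other split. In each of the 4 fractions the cKO library had a lower Psmb9 CPM than WT, by 1.08 (0.71 to 1.48 lower), 0.70, 0.81 and 0.81 on the log2 scale in the order given. A UMI of a marker is found more often in deeper cells, and the split is therefore not free of depth.

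To compare mature with DP-like cells gene by gene, log2 ratios of CPM were taken within each library, and a gene with 50 or more UMIs over both classes was counted as higher or lower when it was past 0.5. Psme2, Psmb9, Psmb10 and Psme1, which encode both PA28 chains and the immune beta1 and beta2 subunits, were the 4 members higher in mature cells, in WT and in cKO. Of 47 members tested, 4 were higher and 7 lower in WT, against 13.5% and 45.1% of all genes, and 4 were higher and 10 lower in cKO, against 8.55% and 49.3%. The median member was at −0.10 in WT and −0.12 in cKO, where the median of all genes was −0.42 and −0.49. Relative to that median, 19 members would be higher and 1 lower in WT, and 16 and 0 in cKO, so the directions below hold for CPM. The share of all genes past the limit after centring was not taken. These centred counts therefore show only that the calls depend on the scaling.

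Psme2 had the highest ratio of the 4 in both libraries and Psme1 the lowest. Psme2 went from 113 CPM (104 to 123) in DP-like to 521 (497 to 547) in mature WT cells, a log2 ratio of 2.20 (2.07 to 2.34), and from 180 (166 to 195) to 415 (381 to 450) in cKO, 1.20 (1.04 to 1.37). Early post-selection-like cells lay between, with 258 and 303 CPM. Psme1 went from 268 CPM (254 to 282) to 567 (541 to 593) in WT, 1.08 (0.98 to 1.18), and from 306 (287 to 325) to 436 (402 to 472) in cKO, 0.51 (0.36 to 0.66). With Psmb9 at 1.52 (1.34 to 1.70) and 0.61 (0.32 to 0.91) and Psmb10 at 1.17 (1.01 to 1.33) and 0.69 (0.46 to 0.93), each of the 4 had the lower ratio in cKO. These ratios rest on DP-like cells that sat in different clusters in the libraries. For Psme2 the DP-like level was itself higher in cKO, at 180 against 113 CPM. The part of the DP-like reference was not tested. The cKO ratio of Psme1 lay at 0.44 and that of Psmb9 at 0.49, both under 0.5, when cells were filtered more strictly. The 4 were also the ones past 0.5 in both libraries when innate T-like or antigen-presenting-like cells were set against DP-like cells, among 6 and 6 members higher in WT and cKO innate T-like cells (14.3% and 17.3% of all genes) and 10 and 7 in antigen-presenting-like cells (15.7% and 19.8%). Lower members numbered 16 and 14 in innate T-like cells (55.0% and 49.8% of all genes) and 10 of 47 and 17 of 45 in antigen-presenting-like cells (50.3% and 37.9%).

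The constitutive core stayed near its DP-like level. None of the 7 constitutive beta subunits was past 0.5 in either library, with medians of 0.08 in WT and −0.11 in cKO, and the fifth-highest member was Psma4, an alpha subunit, at 0.48 and 0.22. Psmb6 stood at 228 CPM in DP-like and 213 in mature WT cells, Psmb5 at 244 and 302 CPM, and Psmb7 at 98.5 and 74.8 CPM. In cKO the same pairs were 269 and 250 CPM, 274 and 310 CPM, and 109 and 94.8 CPM. The alpha ring held 1 lower member, Psma6, at 340 and 199 CPM in WT (−0.77) and 406 and 229 CPM in cKO (−0.83).

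Genes of the 19S cap had medians of −0.26 in WT and −0.31 in cKO, which were 0.17 and 0.18 above those of all genes. Of the 20, 4 were lower in WT and 6 in cKO, where 45.1% and 49.3% of all genes were, and none was higher. Psmd9, an assembly chaperone of the cap, stood at 127 CPM in DP-like and 69.6 in mature WT cells (−0.87) and at 96.0 and 61.5 CPM in cKO (−0.64). Psmd3, a scaffold subunit, was at −0.75 and −0.69, Psmd4, a ubiquitin receptor, at −0.51 and −0.64, and Psmc6, an ATPase, at −0.67 and −0.63. Psmf1, the inhibitor PI31, went from 44.9 to 27.7 CPM in WT (−0.70) and from 44.4 to 27.5 CPM in cKO (−0.69). Psme4, the PA200 activator, went from 78.2 to 40.6 CPM in WT (−0.94) and from 47.0 to 28.9 CPM in cKO (−0.70). All genes spanning over 100 kb, as Psme4 does, had medians of −0.66 in WT and −0.82 in cKO. Psmd10 (−0.70), Psmd8 (−0.61) and Psmc3ip (−0.72, interval −1.64 to 0.11) were past −0.5 in cKO alone, which is no test of a difference between the libraries.

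**Figure D3:**
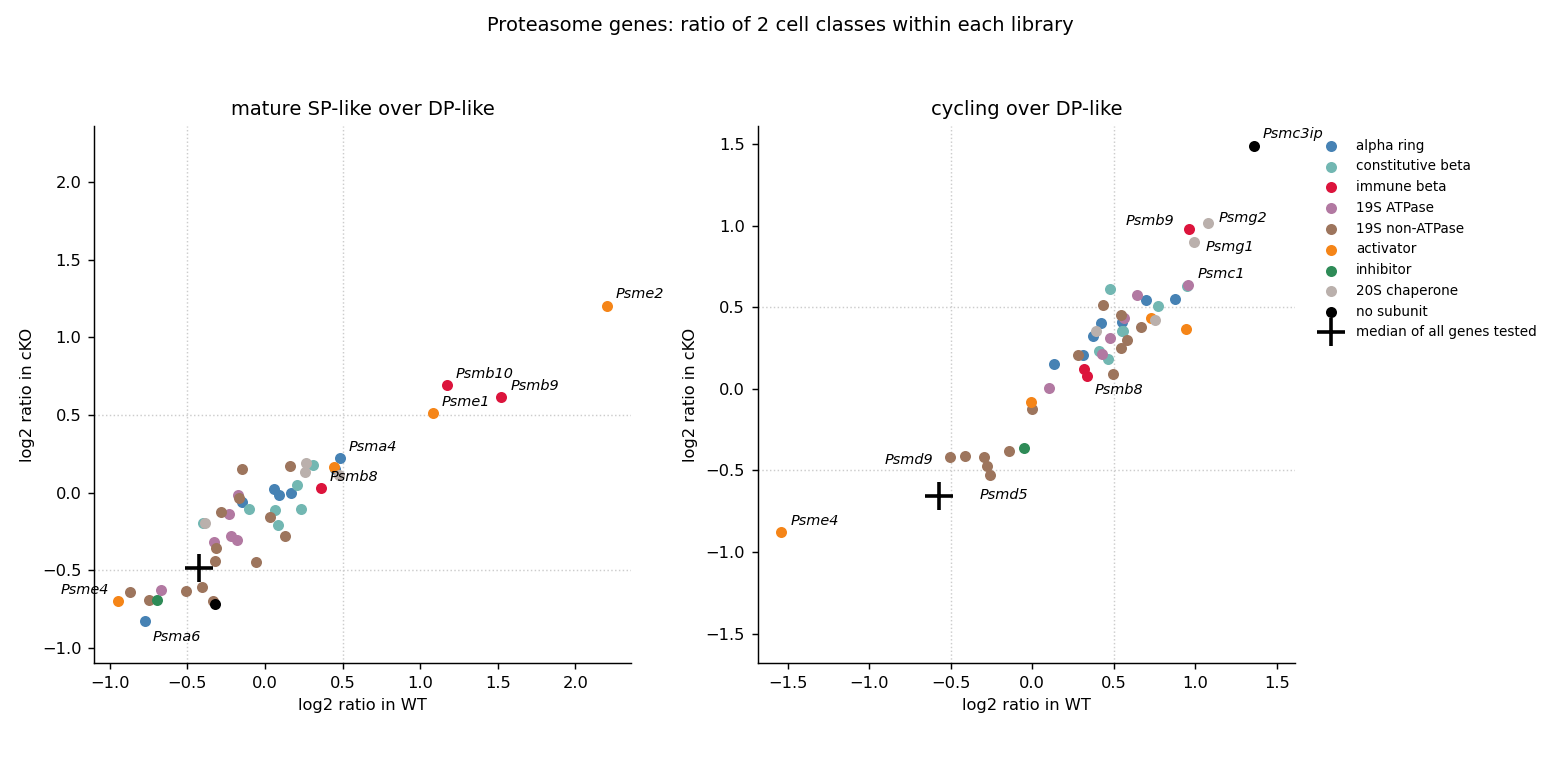
Log2 ratio of CPM of mature SP-like over DP-like cells (left) and of cycling over DP-like cells (right) for each proteasome gene tested, in WT (horizontal axes) and cKO (vertical axes), colored by role, with dotted lines at 0.5 and −0.5 and a black cross at the median of all genes. Psme2, Psmb9, Psmb10 and Psme1 lie beyond 0.5 on both axes on the left, and Psme4 is the lowest gene on both axes on the right.

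Cycling thymocytes carried more RNA for the core, for its assembly chaperones and for some cap ATPases. Against DP-like cells, 21 of 47 members were higher and 2 lower in WT (17.2% and 53.3% of all genes) and 12 higher and 2 lower in cKO (14.9% and 56.3%). The median member was at 0.48 and 0.33, against −0.57 and −0.65 over all genes, and 37 of 47 members were above 0 in each library. The 10 members higher in both were Psma4, Psma7, Psmb5, Psmb6, Psmb9, Psmc1, Psmc3ip, Psmc4, Psmg1 and Psmg2. Another 13 were higher in 1 library alone, and the share of all genes higher in both was not taken.

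By role, 3 of 4 chaperones in WT and 2 of 4 in cKO were higher in cycling cells, with medians of 0.87 and 0.66. Psmg2 went from 34.6 CPM in DP-like to 72.9 in cycling WT cells (1.08) and from 41.8 to 84.5 CPM in cKO (1.01), and its partner Psmg1 from 28.0 to 55.8 CPM (0.99) and from 34.3 to 64.1 CPM (0.90). Together they form a dimer on which the alpha ring is built. Constitutive beta subunits had 4 of 7 and 3 of 7 higher, with medians of 0.55 and 0.36. Psmb5 stood at 244 CPM in DP-like and 471 in cycling WT cells (0.95) and at 274 and 425 CPM in cKO (0.63), and Psmb6 at 228 and 389 CPM (0.77) and 269 and 384 CPM (0.51). Alpha subunits had 3 of 7 and 2 of 7 higher, among them Psma7 at 0.87 and 0.55. ATPases had 3 of 6 and 2 of 6 higher, with Psmc1 going from 113 to 220 CPM (0.96) in WT and from 125 to 194 CPM (0.63) in cKO.

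The remaining cap genes, which include the assembly chaperones Psmd5 and Psmd9, were split in direction. Of 14 non-ATPases, 4 were higher and 1 lower in WT, and 1 higher and 1 lower in cKO, with medians of 0.14 and −0.02. The lowest of them were Psmd9 at −0.50 and −0.42, Psmd4 at −0.41 and −0.41, Psmd8 at −0.30 and −0.42, Psmd10 at −0.28 and −0.47 and Psmd5, a cap assembly chaperone, at −0.26 and −0.53. Psme4 was the lowest member in both libraries, with 78.2 CPM in DP-like and 26.9 in cycling WT cells (−1.54, −1.79 to −1.29) and 47.0 and 25.6 CPM in cKO (−0.88, −1.16 to −0.59). All genes spanning over 100 kb had medians of −1.09 in WT and −1.28 in cKO. Psme4 thus lay under its span class in WT and above it in cKO. Psmb9 was higher in cycling cells by 0.96 and 0.98, while Psmb8 was at 0.34 and 0.08. Psmc3ip, which acts in recombination and is no subunit, was the highest by the rule, from 16.1 to 41.4 CPM in WT (1.36) and from 17.9 to 50.3 CPM in cKO (1.49). Cycling and DP-like cells differ in depth and sat in different clusters in the 2 libraries, and the part of either was not tested.

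DN-like cells also had more RNA of both PA28 chains, Psmb9 and Psmb10 than DP-like cells. Against DP-like cells, 13 of 47 members were higher and 10 lower in WT (14.6% and 51.6% of all genes), and 8 and 8 in cKO (12.5% and 53.2%). Psme2 at 1.59 and 1.22, Psmb9 at 1.33 and 1.24, Psmb10 at 1.18 and 0.93 and Psme1 at 1.08 and 0.70 were higher in both libraries, with Psmg2, Psmg4 and Psmc3ip. Psma6, Psmd8, Psmd9, Psmd11, Psme4 and Psmf1 were lower in both. DP-like cells had the lowest level of the 5 main classes of Psmb9, Psmb10 and Psme2 in both libraries, while Psme1 stood at 266 CPM in cycling and 268 CPM in DP-like WT cells and at 289 and 306 CPM in cKO. Early post-selection-like against DP-like cells had 5 members higher and 1 lower in WT (11.1% and 22.0%) and 6 and 1 in cKO (9.11% and 25.1%), with Psma7, Psmb10 and Psme2 higher in both.

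The genotypes were then compared within each class. In DP-like cells, where Cre is first active, most core subunits had ratios slightly above 0 in the pooled class. Within single clusters, values are given below for the median of all members and not for the core alone. Of 47 members 3 were past 0.5 (8.24% of all genes) and 1 was past −0.5 (29.3%). The median member was at 0.17 and the median of all genes at −0.19, and 36 of 47 members were above 0. All 7 alpha subunits tested (median 0.32) and all 7 constitutive beta subunits (median 0.24) were above 0, while the 20 cap genes had a median of 0.03. The libraries fill different DP-like clusters, so single clusters were taken as well. The median member was at −0.04 in cluster 0, 0.06 in cluster 1 and −0.01 in cluster 2. The median of all genes was −0.03, −0.13 and −0.07 in that order.

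The 3 higher members in DP-like cells were Psme2, Psma4 and Psme3. Psme2 stood at 113 CPM in WT and 180 CPM in cKO (0.67, 0.50 to 0.83), Psma4 at 108 and 160 CPM (0.57, 0.40 to 0.75) and Psme3, the nuclear PA28 gamma chain, at 42.8 and 62.6 CPM (0.55, 0.27 to 0.82). Psmg4 at 0.41 and Psma5 at 0.38 came next. Psme4 was lowest, with 78.2 CPM in WT and 47.0 CPM in cKO (−0.73, −1.01 to −0.47), and in cluster 1 alone, which both libraries fill, its ratio was 0.00. Psmd9 at −0.41, Psmd13 at −0.22, Psmd5 at −0.22 and Psmd4 at −0.21 were the next lowest. Psmb9 was at −0.08, Psmb10 at 0.05 and Psme1 at 0.19.

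In mature cells the immune beta1 subunit stood out. Psmb9 at 224 CPM in WT and 113 CPM in cKO (−0.99, −1.25 to −0.74) was the 1 member of 47 past −0.5, where 35.5% of all genes were, and no member was past 0.5, where 8.34% were. Psmb10 was at −0.43 (−0.64 to −0.22), Psme1 at −0.38 (−0.51 to −0.25) and Psme2 at −0.33 (−0.47 to −0.19), all with intervals under 0 but inside the limit. Psme4 was at −0.49 (−1.04 to 0.03) and Psmb8 at 0.00. The median member was at 0.02 and the median of all genes at −0.24. Relative to that median, Psmb9 was the 1 member lower and 7 were higher, with no share of all genes taken after centring. The 10 markers of mature cells, all detected in both libraries, themselves summed to 2774 CPM in WT and 1898 CPM in cKO mature cells. Psmb9 was lower in cKO in every fraction of mature cells given above, but those fractions overlap and were chosen after seeing the data. The part of maturity in the Psmb9 difference was not tested. Over alternatives of filter, clustering, scaling and fraction of cells, the Psmb9 ratio stayed between −1.08 and −0.70.

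Early post-selection-like cells differed from mature cells in this respect, with Psmb9 at −0.09 and Psmb8 at 0.38, and a difference between the classes was not tested. Of 46 members there, 3 were higher (9.24% of all genes) and 2 lower (34.0%). Psmg2, with 24 UMIs in WT and 47 in cKO, was at 1.45 (0.71 to 2.22), Psmg1 at 1.03 (0.35 to 1.73) and Psma5 at 0.62, while Psme4 was at −1.16 (−1.84 to −0.52) and Psmd9 at −0.50. Early and mature cells in 1 sum had 0 higher (8.23%) and 2 lower members (32.9%), Psmb9 at −0.88 (−1.10 to −0.67) and Psme4 at −0.70 (−1.12 to −0.30). Psmb10 at −0.33, Psmd5 at −0.32 and Psme2 at −0.28 were the next lowest. Psmg2 at 0.50, Psmg1 at 0.48, Psmd8 at 0.42, Psma6 at 0.41 and Psma1 at 0.37 were the highest.

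In cycling cells no member was past 0.5 in either direction, against 3.18% of all genes higher and 35.3% lower, with a median member of −0.01. DN-like cells, the class before Cd4-driven Cre acts, had 6 members higher (10.2%) and 2 lower (25.8%) of 46 with a median of 0.12, so ratios past 0.5 were also found there. Psme4 there was at −0.37 and Psme2 at 0.30.

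**Figure D4:**
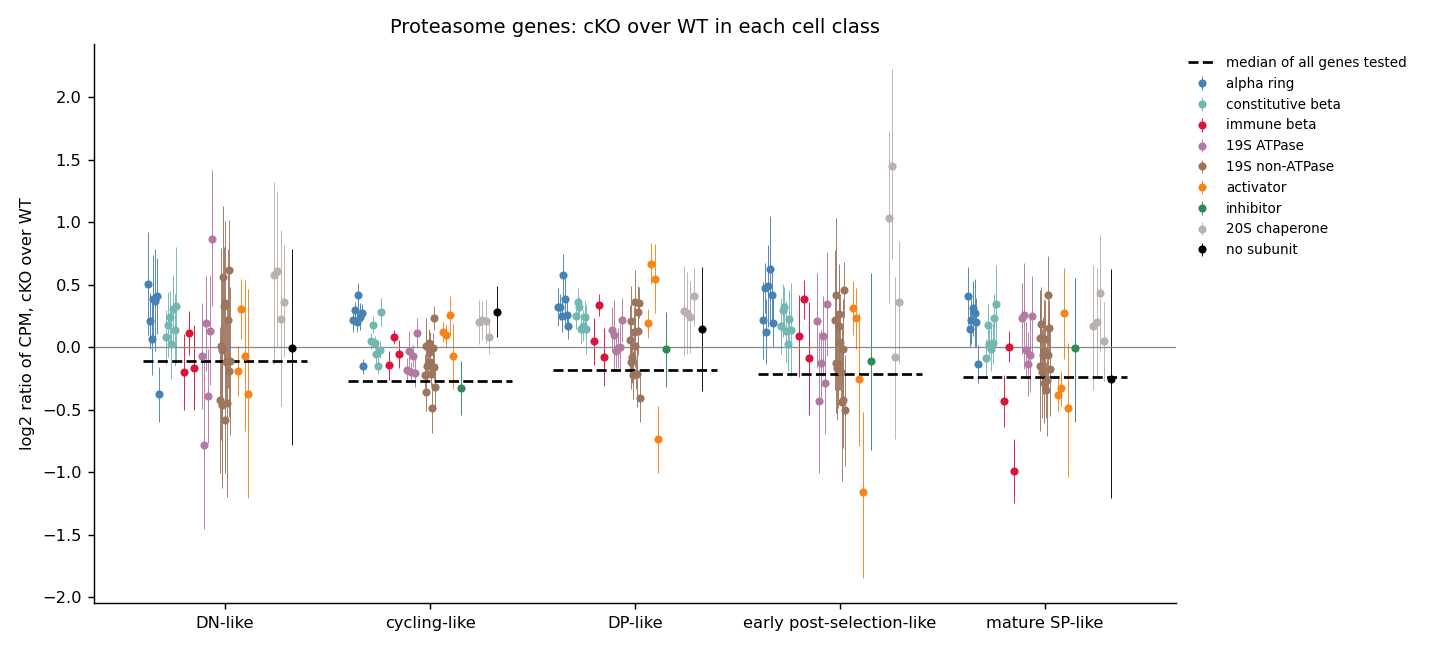
Log2 ratio of CPM, cKO over WT, of each proteasome gene tested (points, colored by role, bars are 95% counting intervals) in 5 cell classes, with the median of all genes as a dashed line. Psmb9 at −0.99 lies apart from the other genes in mature cells, and most alpha and constitutive beta subunits lie above the dashed line in each class.

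Longer genes had lower cKO over WT ratios across the whole table, and 9 of the 47 members span up to 5 kb and 23 span 5 to 20 kb. In DP-like cells the median of all genes was 0.21 for genes spanning up to 5 kb, 0.05 for 5 to 20 kb, −0.22 for 20 to 50 kb, −0.49 for 50 to 100 kb and −0.75 above 100 kb. In mature cells these medians were 0.08, −0.01, −0.29, −0.57 and −0.91. Of 47 members, 34 in DP-like and 30 in mature cells lay above the median of their own span class. Psme4, the one member above 100 kb (chr11:30771726-30880361), was level with its class in DP-like cells (0.02 after centring), whereas Psmb9, with a span of about 5.8 kb, lay far under its class in mature cells.

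**Figure D5:**
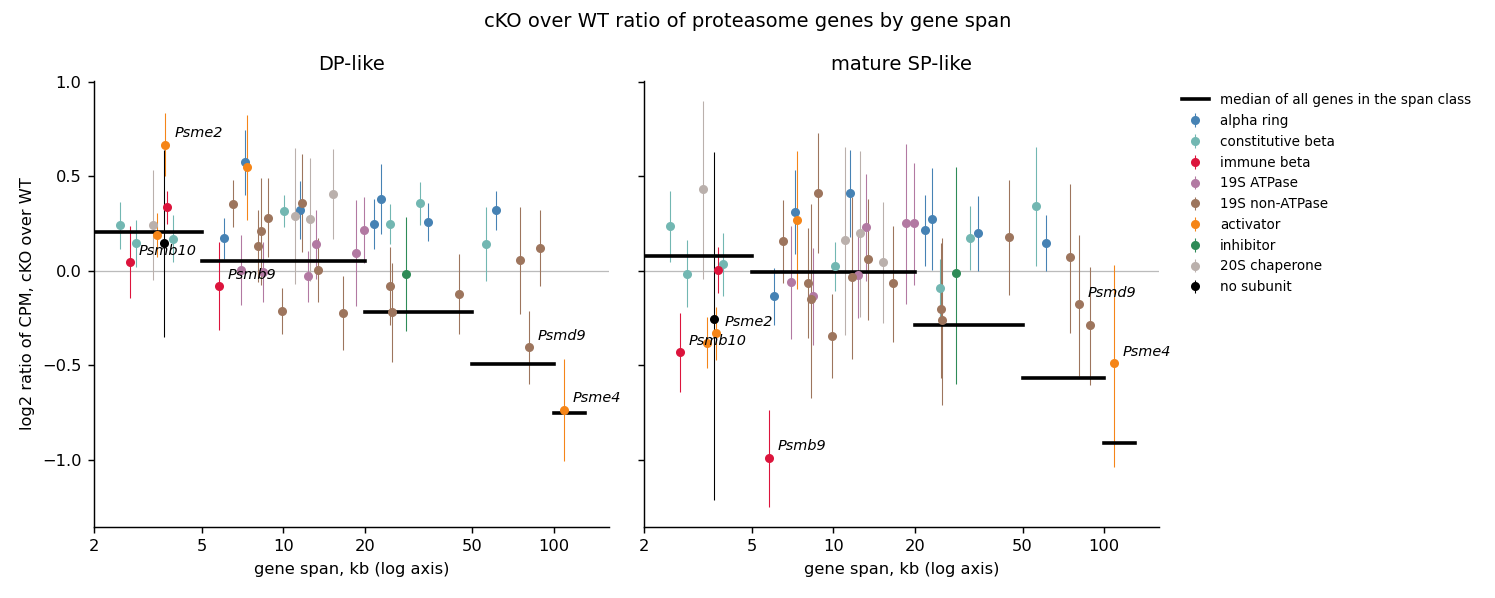
Log2 ratio of CPM, cKO over WT, of each proteasome gene (points, colored by role, bars are 95% counting intervals) against its genomic span in kb (log axis) in DP-like (left) and mature SP-like (right) cells, with the median of all genes of a span class as a black line, the last class being open-ended. Psme4 lies on the line of its class in DP-like cells and Psmb9 lies far under that of its class in mature cells.

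Genes that cooperate with the proteasome were counted on lists chosen with earlier results known. Of 22 partners of the proteasome tested in DP-like cells, 2 were higher in cKO (8.24% of all genes) and 2 lower (29.3%). The higher ones were Akirin2, a factor of nuclear proteasome import, at 17.7 CPM in WT and 51.6 CPM in cKO (1.55, 1.18 to 1.93) and Adrm1, a ubiquitin receptor of the cap, at 22.9 and 49.6 CPM (1.12, 0.77 to 1.47). The ubiquitin ligase Ube3c (−0.79) and the proteasome adaptor Ecpas (−0.64) were lower. In mature cells 3 of 21 were higher (8.34% of all genes), Akirin2 at 2.08, Adrm1 at 1.05 and Zfand5 at 0.92, and 3 were lower (35.5%). Pomp, the maturation factor of the core, was at 0.24 in DP-like and 0.22 in mature cells. In cycling against DP-like cells, the cap deubiquitinase Uchl5 was at 1.40 in WT and 1.08 in cKO and the cap-bound thioredoxin Txnl1 at 1.13 and 0.84.

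Peptide-loading and interferon-stimulated genes were counted on lists of the same kind. Of the peptide-loading genes, which carry proteasome products to MHC class I, 4 of 10 were lower in cKO mature cells, near the 35.5% of all genes, and none was higher. After centring on the median of all genes 1 of the 10 was lower and 2 were higher, with no centred share of all genes taken. The 4 were Nlrc5, the transactivator of MHC class I, at 75.4 CPM in WT and 13.0 CPM in cKO (−2.53, −3.31 to −1.84), Tap1 at −0.52, Tap2 at −0.56 and Tapbp at −0.51, while B2m was at 0.41. Of 13 interferon-stimulated genes, 12 were higher in mature than in DP-like WT cells (median 3.12) and 8 of 11 in cKO (median 1.85), against 13.5% and 8.55% of all genes. In cKO against WT mature cells, 6 of 13 were lower (median −0.40), where 35.5% of all genes were lower with a median of −0.24, and none was higher. Centring on that median left 1 lower, with a centred median of −0.16 and again no centred share of all genes. In mature cells, markers of antigen-presenting cells summed to 206 CPM in WT and 196 CPM in cKO, with 3 and 5 of 15 at 0 (Xcr1, Clec9a and Siglech in both), markers of innate T cells to 507 and 376 CPM, with 0 and 2 of 9 at 0, and B cell markers to 15.1 and 18.1 CPM, with 3 and 4 of 5 at 0. Their part in the Psmb9 difference was not tested.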

How the data were processed

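Thymus cells were captured in DNBelab C4 droplets by the authors, who deposited raw UMI counts per gene and cell for 1 library per genotype, made with dnbc4tools (version 2.1.3 in the series' design text, 3.0 in the matrix header) on mm10 per the submitters' notes. The aligner and annotation were not given in the sources used here. The oligo libraries were not used here. Of 21926 gene IDs, 21379 (97.5%) matched the GENCODE annotation used here (GRCm38) with their version, including all 50 proteasome genes.

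From the deposited counts, cells with at least 50 genes and at most 10% mitochondrial UMIs were kept. They were clustered jointly with scanpy 1.11.5 (igraph 0.11.9, Leiden, resolution 1.0, 2000 variable genes, 30 components, 20 neighbors, seed 1), with the proteasome genes, the gene lists and Eif4g2 left out of the clustering genes, so a difference from the study may come from rebuilt names. A cluster was named where at least 3 markers of a list stood 0.5 log2 or more above the mean of all clusters. No other list could hold more of the cluster's 10 leading genes. Among the lists left, the one with the highest median was taken. Doublets were not removed and no caller was run. A stricter filter, keeping 5692 WT and 3868 cKO cells of 1000 to 10000 UMIs with a mitochondrial share of 3% or less, was tried as an alternative. Barcodes are serial names, so cells shared between libraries could not be counted.

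UMIs were summed per class and library and divided by the class total (CPM). Poisson intervals for levels, exact binomial intervals for shares (Clopper-Pearson) and exact conditional intervals for ratios were computed with scipy 1.17.1 and numpy 2.4.6 and cover counting error only. The scripts were tested on simulated data. With 1 library per genotype no test was run. Genes were counted past a log2 ratio of 0.5 with at least 50 UMIs, over all genes. Named were the immune and thymic subunits, their constitutive partners, Psma8, Psme1 to Psme4, Psmf1 and the 5 highest and 5 lowest members of each main ratio. Other members named were chosen after their values were seen. The members and lists were chosen with earlier results of these data known. The lists used were the partners, the peptide-loading and interferon genes and the cell type markers. Their genes are named above only in part, and those of the interferon list not at all.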

Additional observations from a re-analysis of the deposited data

Results flagged for a closer look

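As CPM, the cKO over WT ratios of both PA28 chains pointed in opposite directions in DP-like and mature cells, with counting intervals that exclude 0 on either side. Psme1 was at 0.19 (0.07 to 0.31) in DP-like cells and −0.38 (−0.51 to −0.25) in mature cells. Centred on the median of genes of like span, Psme1 in DP-like cells was at −0.015, so its direction there depends on the scaling. Psme2 was at 0.67 (0.50 to 0.83) in DP-like cells and −0.33 (−0.47 to −0.19) in mature cells. Centred on the median of all genes, Psme2 was at −0.087 and Psme1 at −0.14 in mature cells. The median of genes spanning up to 5 kb, as both do, was 0.08 there, so the size of the mature values depends on the scaling too. Over the alternatives tried, the mature ratio lay between −0.53 and −0.14 for Psme1 and between −0.66 and −0.087 for Psme2. The DP-like class also pools clusters that the libraries fill differently. Each class is 1 sample per genotype, so the difference between the classes was not tested.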

How the results depend on the processing

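No paired analysis was possible because each genotype is 1 library and the labels give no replicate numbers, and leaving out a replicate was likewise not possible. Centring on the median of all genes moved the median member in DP-like cells (cKO over WT) from 0.17 to 0.36, in mature over DP-like cells to 0.32 in WT and 0.37 in cKO, and in cycling over DP-like cells to 1.05 and 0.98. It raised the counts of members higher in cKO to 12 in DP-like and 10 in post-selection-like cells, those of mature over DP-like cells to 19 and 16 (lower 1 and 0), and those of cycling over DP-like cells to 40 and 39 (lower 1 and 0). Centring on the span class gave 7 members higher in DP-like and 7 in post-selection-like cells. Shares of all genes past the centred limits were not taken, so the centred counts show only how the calls depend on scaling. Without centring, post-selection-like cells had 2 members higher with the stricter filter, with libraries clustered alone and as a mean over cells, and the early class alone 3. In mature over DP-like cells, resolution 1.6 gave 13 members lower in WT, and in cKO the stricter filter gave 2 higher, against 6 with no UMI minimum. DN-like cells, as an alternative for DP-like cells, had 6 higher. Members lower in cycling cells numbered 1 to 3 in WT and 0 to 3 in cKO. The ratio of Psme4 turned to 0.019 (DP-like, span-centred), 0.0016 (cluster 1 alone, an alternative added after seeing the data) and 0.16 (post-selection, span-centred), that of Psme3 to −0.070 in DN-like cells, and that of Psme1, under 0.5 throughout, from 0.19 in DP-like cells to −0.015 span-centred and −0.19 in DN-like cells. In mature cells the beta1 share was 60.3% at resolution 1.6 and 48.5% as a mean over cells in WT, and 45.8% at resolution 1.6 and 35.8% with libraries clustered alone in cKO. The WT beta2 share was 80.2% at resolution 1.6 and 73.9% in cells thinned to 1000 UMIs, and the WT beta5 share 67.6% and 67.5%. The cKO beta5 share was 70.0% with the stricter filter, 60.8% at resolution 1.6 and 69.1% thinned. The causes were not tested. In all, 112 medians and shares and 466 counts and single ratios stayed within their margin. The 124 counts and single ratios that moved beyond it include moved counts listed above. With 1 mouse per genotype, the spread between mice is unknown, and the small innate T-like and antigen-presenting-like classes limit what their ratios show.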
